A study of Mus musculus with 52 samples.

Results

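Tumours of aged and young mice that had received anti-PD-L1 were compared. These are 18 of the 52 tumours of the series, 8 from aged and 10 from young hosts, taken as every deposited count column named for an old or young host under anti-PD-L1. All hosts were Balb/C mice carrying 4T1, a mouse mammary carcinoma line, of which 100000 cells were injected into the 4th left mammary fat pad, and tumours were collected at a size of at most about 150 mm3. Young hosts were 8 to 10 weeks old and aged hosts more than 12 months. Both groups were given 3 doses of 200 µg of the anti-PD-L1 antibody 10F.9G2, on days 7, 10 and 13. The other 34 tumours received an isotype antibody (7 aged and 7 young) or anti-CTLA4 (8 aged and 12 young) and enter here because they link the sequencing batches. The labels give replicate numbers but name no animal, and a p-value here therefore covers only how much these libraries vary.

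PD-L1 is a surface protein of tumour and myeloid cells that inhibits T cells through the receptor PD-1, and PD-L2 is a second ligand of that receptor. Interferon gamma, released by activated T cells and natural killer cells, induces PD-L1 together with antigen presentation genes and T cell attracting chemokines. Antibodies to PD-L1 block the contact with PD-1, and their action depends on T cells that recognise the tumour.

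All 8 aged libraries were sequenced in batch 1, while 9 young libraries came from batch 2 and young replicate 1 from batch 3. With no shared batch, age and batch cannot be told apart from these 18 libraries alone. The fit over all 52 libraries used a batch term, whose values came from groups sequenced in more than 1 batch. Young anti-CTLA4 was the one group with libraries in both batch 1 (4) and batch 2 (3), beside 5 in batch 3. Under isotype the ages shared no batch either, with 7 young libraries in batch 2 and aged ones in batches 1 (3) and 3 (4). Total counts were 18451932 to 25736619 in aged and 11968347 to 32349249 in young anti-PD-L1 libraries. Tumour keratins were present in each of the 18 libraries, with Krt8 at 170 to 958 TPM and Krt18 at 236 to 1255 TPM, while the hormone receptor genes Esr1 (0.468 to 2.64 TPM) and Pgr (0.00748 to 0.851 TPM) were low. In whole tumours, fewer cells of a type and less RNA per cell cannot be told apart.

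Of 17899 genes tested, 903 (5.04%) differed between ages at an adjusted p under 0.05 in edgeR's quasi-likelihood test with Benjamini-Hochberg adjustment. In aged hosts 551 genes (3.08%) were higher and 352 (1.97%) lower. Differences were larger among lower genes, with a median log2 fold change (aged minus young) of -1.77 against 0.80 among higher genes and -0.06 over all genes. The libraries of the 2 ages did not overlap in 35 of the higher and 53 of the lower genes. Over all genes tested this held for 0.274% in the higher and 1.12% in the lower direction. Genes that rose were longer, at 1.34 times the median effective length of all genes tested, and genes that fell were shorter, at 0.693 times. With the length trend of each library as a covariate 1745 genes were higher and 1208 lower, and 893 of the 903 were among them. That fit called 7 interferon-gamma response genes lower in place of 2, and 5 MHC class I genes in place of 1.

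Without the batch term 922 genes were higher (5.15%) and 1270 lower (7.1%), together 12.2% of genes tested, and 674 of the 903 passed in the same direction. Of 74 passing genes named here (all but Nfkbia and Il1rn), 33 were smaller in size by more than 1.5 times in that fit. The call was lost in 9, and 0 were larger by as much. The count rested on few libraries. It was 224 without young anti-CTLA4 replicate 1, 341 without replicate 3 and 439 without replicate 9 of that group, 1582 without its replicate 5, 1701 without young anti-PD-L1 replicate 1, and 555 without aged anti-PD-L1 replicate 3. Of the same 74 genes 36 passed in each of 25 fits that left out 1 library. These fits omitted in turn each of the 18 anti-PD-L1 libraries and 7 young anti-CTLA4 libraries of batches 1 and 2, and no others.

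**Figure D1:**
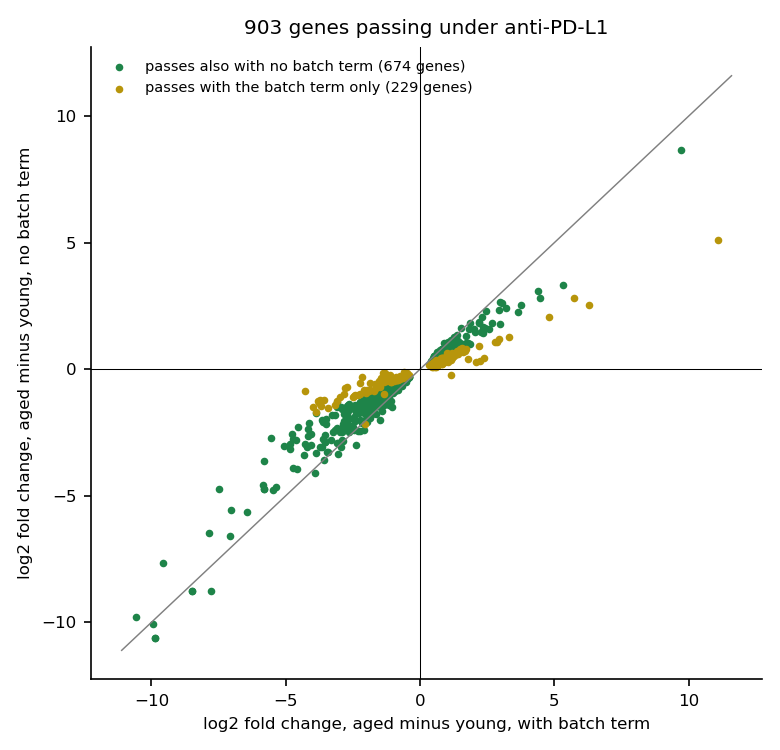
Log2 fold changes (aged minus young under anti-PD-L1) of the 903 passing genes, fitted with a batch term (horizontal axis) and without one (vertical axis), 1 point per gene, with the line of equality in grey. Green genes (674) also passed without the batch term; yellow genes (229) passed with the term only, and nearly all of them lie nearer to 0 on the vertical axis.

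Genes of the PD-1 ligands were lower in aged hosts. Cd274, which encodes PD-L1 (ENSMUSG00000016496, chr19:29367455-29388095, plus strand, GRCm38), was at 13.8, 28.4 and 37.6 CPM (lowest, median and highest) in 8 aged and at 26.7, 53.2 and 113 CPM in 10 young tumours. The ranges overlapped at young replicates 2 and 10, of which replicate 2 was the lowest young library, while the 8 aged libraries lay below the young median. Cd274 fell by 1.47 on the log2 scale (SE 0.43, edgeR adjusted p = 0.0359). The call was lost in 8 of 25 fits that left out 1 library (adjusted p up to 0.159), namely without aged anti-PD-L1 replicates 3 or 4, or young anti-CTLA4 replicates 1, 2, 3, 6, 8 or 9.

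Pdcd1lg2, which encodes PD-L2 and lies downstream of Cd274 on chromosome 19 (29410919 to 29471161), was at 0.979, 3.39 and 7.73 CPM in aged and at 2.74, 18.9 and 50.5 CPM in young tumours. Young replicate 2 was again the one that reached into the aged range. Pdcd1lg2 fell (-2.64 ± 0.63 SE, edgeR adjusted p = 0.0127), and without young anti-CTLA4 replicate 1 it had an adjusted p of 0.0583. Both ligands were lower in aged hosts under the other antibodies too, for instance with medians of 24.9 (aged) and 40.6 CPM (young) for Cd274 under isotype. Under isotype, as under anti-PD-L1, the ages shared no batch. Of 22 checkpoint receptors and ligands tested, these 2 and Tigit, an inhibitory receptor of T and natural killer cells (-1.80 ± 0.52, adjusted p = 0.0323), fell and 0 rose. The median of the 22 was -0.59. The call of Tigit was lost without aged anti-PD-L1 replicates 3 or 4 or young anti-CTLA4 replicates 1, 2, 3 or 9 (adjusted p up to 0.12).

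The receptor gene Pdcd1 did not pass. Its libraries spanned 2.9 to 25.6 CPM in aged and 4.4 to 17.5 CPM in young tumours, with medians of 7.36 and 7.4 (-0.36 ± 0.58, adjusted p = 0.757). Ctla4, another inhibitory T cell receptor, was at 0.815 to 9.12 CPM in aged and 1.73 to 9.2 CPM in young hosts (-1.10 ± 0.64, adjusted p = 0.324).

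**Figure D2:**
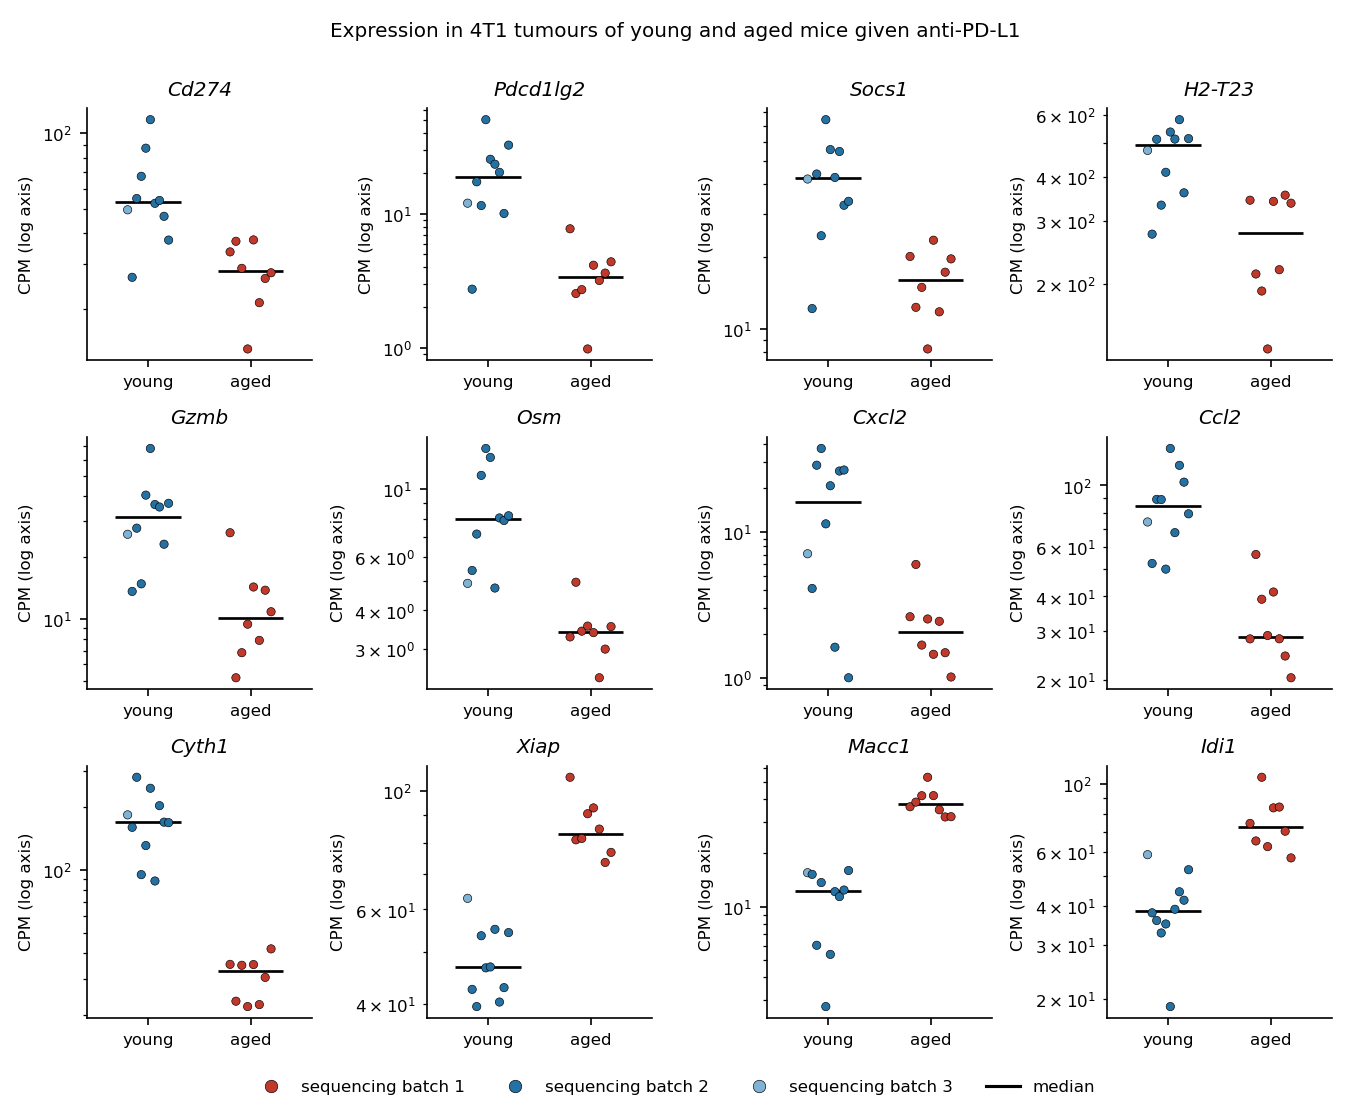
CPM (log axis) of 12 genes in each of 10 young and 8 aged tumours under anti-PD-L1, 1 point per library coloured by sequencing batch, with the median as a bar. Aged libraries lie below the young median for Cd274 to Cyth1 and above it for Xiap, Macc1 and Idi1, and each aged library is from batch 1.

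Interferon-gamma response genes were lower in aged hosts in 21 of 23 members by sign, of which 2 passed and 0 members rose (median -0.85). Socs1, a feedback inhibitor of cytokine signalling, was at 8.23, 16 and 23.4 CPM in aged and 12.1, 42.5 and 74.6 CPM in young tumours. Young replicate 2 alone reached into the aged range. Socs1 fell (-1.76 ± 0.37, edgeR adjusted p = 0.0062) and passed in each of the 25 fits without 1 library. Nos2, the inducible nitric oxide synthase, also fell (-3.55 ± 0.99, adjusted p = 0.0274), and lost its call without young anti-CTLA4 replicates 1, 2 or 9. Without the batch term 12 members were lower.

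The ligand itself, Ifng, was at 0.109, 0.993 and 2.24 CPM in aged and at 0.714, 3.16 and 5.43 CPM in young tumours (-2.04 ± 0.65, adjusted p = 0.0537). The receptor subunit gene Ifngr1 was at 0.08 ± 0.17 (adjusted p = 0.825). The transcription factor gene Irf1 did not pass (-0.62 ± 0.23, adjusted p = 0.108). Neither did the T cell attracting chemokines Cxcl9 (-0.22 ± 0.52) and Cxcl10 (-0.77 ± 0.46), with adjusted p of 0.837 and 0.329. The level of the list, the mean log2 CPM of its members, was 3.80 to 6.26 in aged and 5.44 to 6.83 in young libraries. Aged replicate 4 was the lowest, and 8 of 8 aged libraries were below the young median of 6.41.

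Of 24 type I interferon response genes 0 passed in edgeR (median -0.39), with 3 at an unadjusted p under 0.05 and 0 in DESeq2. When the batch term was left out 1 was lower. Isg15 (-0.33 ± 0.49), Ifit1 (-0.33 ± 0.47), Mx1 (0.12 ± 0.38) and Irf7 (-0.72 ± 0.44), which encode antiviral effectors and a regulator, had adjusted p of 0.342 to 0.889. Of 11 tested genes of the type I interferon receptor and DNA sensing, the receptor subunit Ifnar2 fell (-0.58 ± 0.17, adjusted p = 0.0318). The DNA sensor Cgas rose (0.67 ± 0.17, adjusted p = 0.0191), and its medians were 14.5 (aged) and 11.9 CPM (young). With no batch term Cgas was at 0.25 (adjusted p = 0.177). Both calls were lost without young anti-CTLA4 replicates 1 or 3, and that of Ifnar2 also without its replicates 2, 6, 8 or 9 or aged anti-PD-L1 replicate 6.

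Genes of MHC class I and peptide loading had a median of -0.66, with 16 of 17 members lower by sign. H2-T23, a nonclassical class I gene, was at 131, 278 and 356 CPM in aged and 276, 494 and 581 CPM in young hosts and fell (-0.97 ± 0.30, adjusted p = 0.0456). This call was lost in 15 of the 25 fits without 1 library (adjusted p up to 0.143). They left out aged anti-PD-L1 replicates 2, 3, 4 or 6, young anti-PD-L1 replicates 1, 3, 5, 6 or 8, or young anti-CTLA4 replicates 1, 2, 3, 6, 8 or 9.

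H2-K1, a classical class I gene, was at 473 to 978 CPM in aged and 1035 to 1760 CPM in young tumours. Its libraries did not overlap, and its adjusted p was 0.0556 (-0.79 ± 0.25). The light chain B2m (-0.54 ± 0.22) and the peptide transporter Tap1 (-1.002 ± 0.40) had adjusted p of 0.136 and 0.138. Without the batch term 10 of the 17 were lower. Of 13 class II presentation genes 0 passed in edgeR, 0 at an unadjusted p under 0.05 and 0 in DESeq2 (median -0.50), among them the peptide loading gene H2-DMa (-0.50 ± 0.29, adjusted p = 0.321), and the class II transactivator Ciita was at -0.50 ± 0.55 (adjusted p = 0.634).

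Interferon-stimulated response elements, spelled TTTC, any 2 bases and TTTC, and searched on both strands of the 250 bases upstream of RefSeq gene starts (GRCm38.p6), are shown in capitals for 3 genes that fell, because interferon response genes often carry such an element. Each stretch reads along the strand of its gene, and capitals mark the match furthest upstream. In Socs1 a further match overlaps the marked one and runs on into lower case.
Socs1 (chr16:10785580-10785649, minus strand): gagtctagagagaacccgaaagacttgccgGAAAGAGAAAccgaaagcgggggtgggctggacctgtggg
Gzma (chr13:113101039-113101108, minus strand): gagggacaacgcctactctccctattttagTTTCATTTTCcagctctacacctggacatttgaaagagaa
H2-T23 (chr17:36032786-36032855, minus strand): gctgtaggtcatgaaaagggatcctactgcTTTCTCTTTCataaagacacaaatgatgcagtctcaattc
The letters occurred in 16 of 249 lower genes with an upstream sequence (6.43%), in 15 of 398 higher genes (3.77%) and in 3.46% of all 27025 genes of the table. These matches describe the letters and show no binding.

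**Figure D3:**
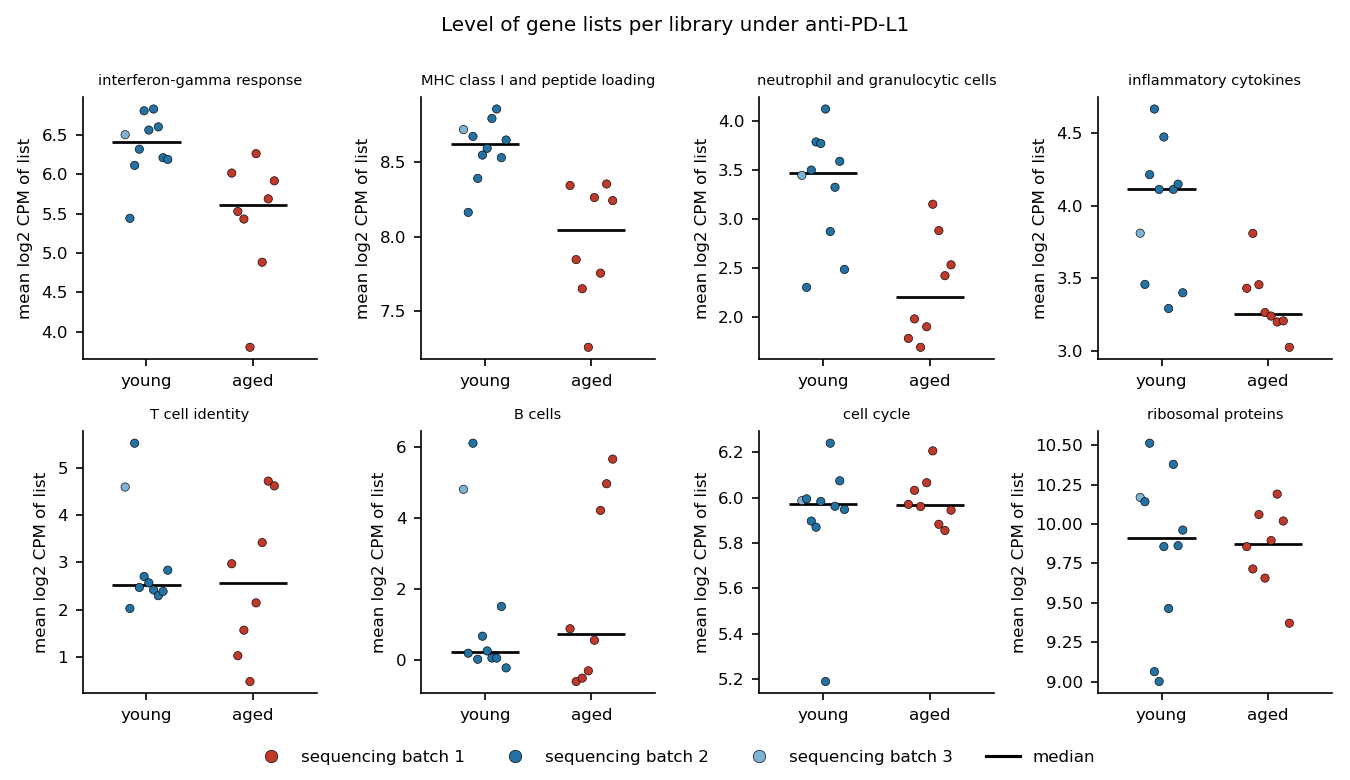
Level (mean log2 CPM of the members) of 8 gene lists in each young and aged tumour under anti-PD-L1, 1 point per library coloured by sequencing batch, with the median as a bar. Aged libraries lie below the young median for the interferon-gamma, MHC class I, neutrophil and cytokine lists. For the T cell, B cell, cell cycle and ribosomal lists they lie on both sides of it. The ranges of the ages overlap in each of the 8 lists.

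The level of T cell identity markers overlapped between the ages. Their level was 0.47 to 4.73 in aged and 2.02 to 5.54 in young libraries, with medians of 2.56 and 2.52, and 0 of 19 members passed in edgeR (3 at an unadjusted p under 0.05, 0 in DESeq2). By sign 19 of 19 members were lower in aged hosts with the batch term. Their median was -1.55, or -0.25 without the batch term. Within batch 1 under anti-CTLA4 10 of the 19 fell (median -1.71), against 11.2% of all genes tested there. The young libraries of that comparison also helped to set the batch term, so the medians of -1.55 and -1.71 are not independent. In young anti-CTLA4 libraries the mean level was 4.42 in batch 1 and 3.16 in batch 2. Cd8a, of cytotoxic T cells, had medians of 11.2 CPM (aged) and 8.13 CPM (young), at -1.07 ± 0.93 and an adjusted p of 0.53. Cd3d (-2.47 ± 0.94), Cd4 (-1.61 ± 0.91) and Foxp3, the regulatory T cell factor (-1.12 ± 0.73), had adjusted p of 0.113, 0.303 and 0.383. Of 16 B cell genes 16 were lower by sign with the batch term, and 0 passed in edgeR, at an unadjusted p under 0.05 or in DESeq2. Their median was -2.73 with and 0.19 without the batch term. Their level ran from -0.59 to 5.65 in aged and from -0.21 to 6.09 in young libraries. The B cell marker Cd79b was at -4.18 ± 2.36 (adjusted p = 0.303). Libraries of high B cell level occurred in both ages.

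Of the effector genes of cytotoxic and natural killer cells 3 fell, while the levels of both lists overlapped between ages. The cytotoxic level was 1.02 to 3.38 in aged and 1.82 to 3.81 in young libraries, with 5 of 8 aged libraries below the young median, and the natural killer level also had 5 of 8 below. Without the batch term the medians of these lists were -0.26 and -0.02. Gzma, the granule protease granzyme A, was at 1.42, 6.55 and 15 CPM in aged and at 5.85, 27.4 and 62.3 CPM in young tumours (-2.87 ± 0.64, edgeR adjusted p = 0.009). Gzmb, granzyme B, was at 5.16, 10.1 and 26.4 CPM in aged and at 13.6, 31.5 and 68 CPM in young tumours (-2.27 ± 0.59, adjusted p = 0.0198). Ranges overlapped for both genes, with 8 of 8 aged libraries below the young median. The pore-forming protein gene Prf1 did not pass (-1.03 ± 0.57, adjusted p = 0.293), so that 2 of 12 cytotoxic effectors fell and 0 rose (median -1.14). By sign 12 of 12 were lower. Of 11 natural killer genes Gzma and the receptor Klra7 (-2.09 ± 0.51, adjusted p = 0.0139) fell. Of 10 regulatory T cell genes, Il10, an inhibitory cytokine, fell (-3.42 ± 0.75, adjusted p = 0.009), from a median of 2.91 CPM in young to 0.347 CPM in aged hosts. Gzmb lost its call without young anti-CTLA4 replicate 1 (adjusted p = 0.0799), and Gzma, Klra7 and Il10 passed in each of the 25 fits.

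With the batch term, inflammatory cytokine genes were lower in 18 of 18 members by sign (median -1.06), and 6 of them fell. Without it the median was -0.47, with Il18 (0.12) above 0. Osm, the cytokine oncostatin M, was at 2.4, 3.4 and 4.95 CPM in aged and at 4.74, 7.98 and 13.6 CPM in young tumours. Aged replicate 2 was the one that reached the young range. Osm fell (-1.97 ± 0.36, edgeR adjusted p = 0.0019), as did Tnf, which encodes tumour necrosis factor (-1.49 ± 0.38, adjusted p = 0.0188). Tnf was at -0.59 without the batch term (adjusted p = 0.128). Nfkbia, the inhibitor of NF-kappa B, fell by less (-0.70 ± 0.19, adjusted p = 0.0282). The interleukin 1 receptor antagonist Il1rn (-1.75 ± 0.52, adjusted p = 0.0391) was the other cytokine gene outside the chemokines. For Nfkbia and Il1rn no values from fits without 1 library are given. Il1b, at 54.1 to 105 CPM in aged and 43 to 151 CPM in young tumours, did not pass (-0.99 ± 0.47, adjusted p = 0.21).

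The neutrophil attracting chemokine genes Cxcl2 and Cxcl3 fell the most. Cxcl2 was at 1.02, 2.07 and 6 CPM in aged and at 1.01, 16 and 37.2 CPM in young tumours (-4.74 ± 1.18, adjusted p = 0.016). Cxcl3 was at 0.558, 0.91 and 1.85 CPM in aged and at 1.06, 6.49 and 18.3 CPM in young tumours (-5.55 ± 1.29, adjusted p = 0.0107). The fitted differences exceeded those without the batch term, which were -2.76 and -2.72. Both lost their call without young anti-CTLA4 replicates 1 or 3 (adjusted p up to 0.0629 and 0.0686), and Tnf without replicate 1 (adjusted p = 0.071). Over all 33 chemokine ligand genes tested, 9 fell and 0 rose with the batch term (median -1.45). Without it 14 fell and 3 rose (median -0.68). This family was chosen after its values were seen. Among the 9 were Ccl3 (-2.94 ± 0.67, adjusted p = 0.0102) and Ccl4 (-2.71 ± 0.58, adjusted p = 0.0072), which attract T cells and monocytes. Ccl3 had an adjusted p of 0.0539 without young anti-CTLA4 replicate 1.

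The kappa B motif, spelled GGG, any 2 bases and TTTCC, which NF-kappa B recognises, is shown in capitals in the upstream sequence of 3 of these genes (same source and strands searched), since it was found in both chemokine genes and in the inhibitor gene.
Cxcl2 (chr5:90903772-90903841, plus strand): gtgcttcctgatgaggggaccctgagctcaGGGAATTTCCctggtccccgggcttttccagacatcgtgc
Cxcl3 (chr5:90785998-90786067, plus strand): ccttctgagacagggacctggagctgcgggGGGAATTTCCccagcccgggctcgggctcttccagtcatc
Nfkbia (chr12:55492648-55492706, minus strand): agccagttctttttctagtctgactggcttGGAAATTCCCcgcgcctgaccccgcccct
In Cxcl2 the marked match, the one furthest upstream, ended 87 bases before the RefSeq start, in Cxcl3 63 and in Nfkbia 19. The Cxcl2 stretch holds a further match in lower case, nearer to the start. The motif occurred in 10 of 249 lower genes (4.02%), 10 of 398 higher genes (2.51%) and 1.65% of all genes of the table.

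With the batch term, markers of neutrophils and granulocytic cells were lower in 22 of 22 members by sign, with 9 that fell and 0 that rose (median -1.92). Without it 8 fell and the median was -1.01, with Elane (0.28), Ctsg (0.10) and Prtn3 (0.05) above 0. S100a9, a calcium-binding alarmin of neutrophils, was at 43.9, 67.8 and 146 CPM in aged and at 62.9, 249 and 468 CPM in young tumours (-3.997 ± 0.98, edgeR adjusted p = 0.0143). Its partner S100a8 fell likewise (-3.79 ± 0.97, adjusted p = 0.0186). Neither passed without the batch term, at -1.51 (adjusted p = 0.103) and -1.25 (adjusted p = 0.186). Ly6g, the surface marker of mouse neutrophils, was at 0.0416 to 0.581 CPM in aged and 0.144 to 2.7 CPM in young tumours (-4.18 ± 1.06, adjusted p = 0.018). All 3 lost their call without young anti-CTLA4 replicate 1 (adjusted p up to 0.0604).

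Markers of blood moved with the granulocyte genes. Of 10 red cell and platelet genes 5 fell and 0 rose (median -1.97), and the list's level was 1.51 to 2.56 in aged and 2.85 to 4.55 in young libraries, with no overlap. The hemoglobin genes Hba-a1 (-2.17 ± 0.56), Hba-a2 (-1.98 ± 0.57) and Hbb-bs (-2.16 ± 0.63) had adjusted p of 0.019, 0.0318 and 0.035. Hba-a1 and Hba-a2 are near-identical copies, so the split of reads between them is uncertain. Pf4, a platelet and megakaryocyte chemokine, was at 13.5, 18.7 and 21.3 CPM in aged and at 26, 76.1 and 216 CPM in young tumours, without overlap (-3.49 ± 0.74, adjusted p = 0.0072). The part of blood in the other differences was not tested. The hemoglobin calls were lost without young anti-CTLA4 replicates 3 or 8, and those of Hba-a2 and Hbb-bs also without replicates 1, 2 or 9.

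**Figure D4:**
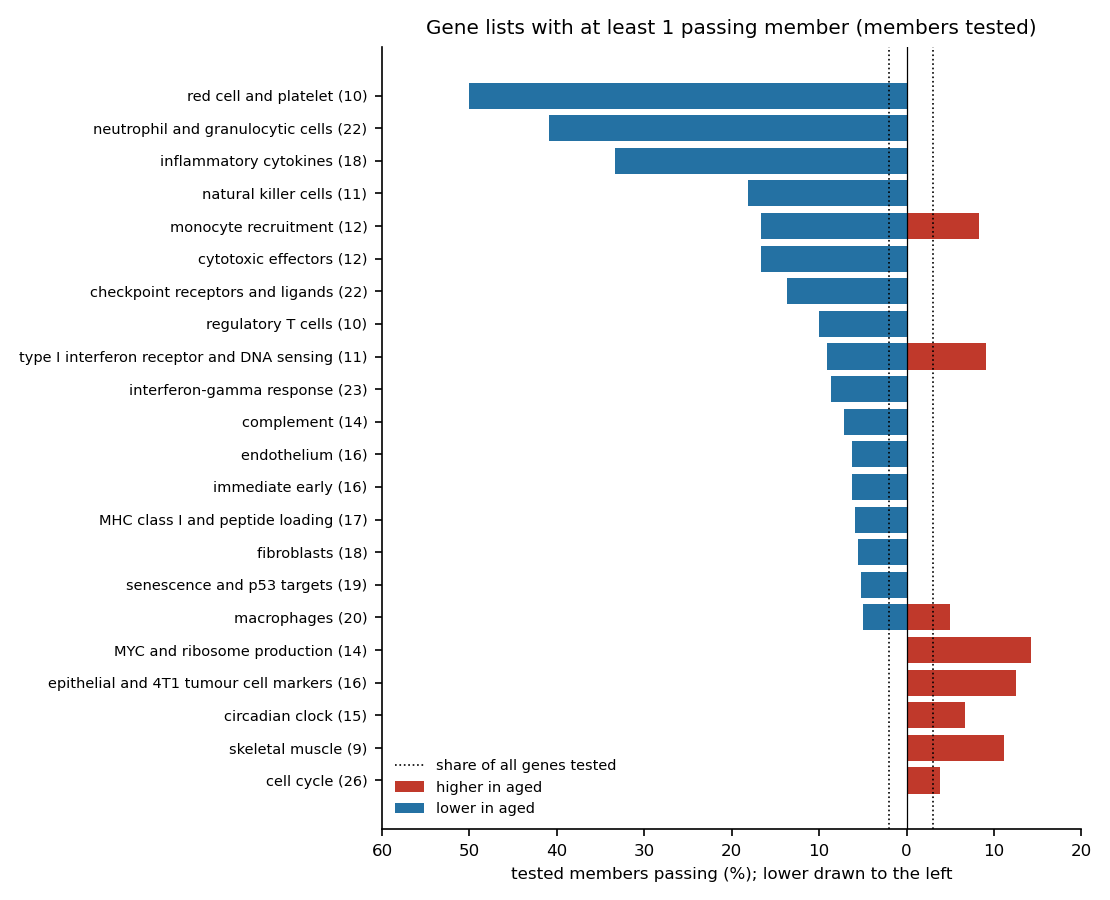
Share of tested members (number in parentheses) of each gene list that passed as higher (red, to the right) or lower (blue, to the left) in aged hosts under anti-PD-L1, for the 22 lists with at least 1 passing member, without the families chosen after values were seen. Dotted lines mark the share of all genes tested, 3.08% higher and 1.97% lower; of the lists shown, red cell and platelet, neutrophil and cytokine reach furthest to the left.

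Genes of mast cells, basophils and eosinophils, a family put together after values were seen, were lower in 22 of 22 members by sign, of which 14 fell and 0 rose (median -1.99). Mcpt1, a mast cell protease, was at 2, 5.12 and 9.56 CPM in aged and at 18.8, 48 and 143 CPM in young tumours, with no overlap (-3.58 ± 0.76, edgeR adjusted p = 0.0072). The mast cell tryptase Tpsab1 was at 12.1 to 40.7 CPM in aged and 42.8 to 118 CPM in young hosts (-2.03 ± 0.47, adjusted p = 0.0107). Prg2, a granule protein of eosinophils, did not overlap either, at 0.125 to 1.97 CPM and 2.4 to 15.5 CPM (-4.75 ± 1.17, adjusted p = 0.0143).

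Hdc, which makes histamine, fell (-2.90 ± 0.67, adjusted p = 0.0107), and so did the type 2 cytokines Il4 (-1.69 ± 0.49, adjusted p = 0.0343) and Il13 (-3.04 ± 0.93, adjusted p = 0.0441). Il4 was at -0.80 without the batch term (adjusted p = 0.0896). Kit, the receptor of mast cells for stem cell factor, did not pass (-0.89 ± 0.51, adjusted p = 0.309). The family's level was 0.38 to 1.62 in aged and 1.93 to 3.29 in young libraries. Prg2 lost its call without young anti-PD-L1 replicate 1 or young anti-CTLA4 replicate 8 (adjusted p up to 0.098), and Tpsab1 and Hdc without young anti-CTLA4 replicate 1. The calls of Il4 and Il13 were lost in 8 and 13 of the 25 fits, without aged anti-PD-L1 replicates 3 or 4 and without 6 young anti-CTLA4 libraries (replicates 1, 2, 3, 6, 8 and 9) in both, and for Il13 also without aged replicates 2, 5 or 6 or young anti-PD-L1 replicates 5 or 6.

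Of the monocyte attracting chemokines Ccl8 and Ccl2 fell, and the receptor gene Ccr2 rose, while Ccl7 (-1.45, adjusted p = 0.0546), Ccl12 (-0.14, adjusted p = 0.88) and Ccl5 (-1.71, adjusted p = 0.168) did not pass. Ccl8 was at 41.3, 217 and 317 CPM in aged and at 361, 1201 and 3213 CPM in young tumours, with no overlap (-3.08 ± 0.66, edgeR adjusted p = 0.0072). Ccl2 was at 20.4, 28.6 and 56.6 CPM in aged and at 50.1, 84.1 and 136 CPM in young tumours (-1.85 ± 0.45, adjusted p = 0.0131). Only the highest aged library, replicate 2, exceeded the lowest young values. Ccr2, the receptor for Ccl2, was at 77.2, 147 and 206 CPM in aged and at 50.1, 56.6 and 141 CPM in young tumours and rose (1.39 ± 0.33, adjusted p = 0.0121). Of the 12 genes of monocyte recruitment 1 rose and 2 fell (median -0.32), and Ccl2 had an adjusted p of 0.0517 without young anti-CTLA4 replicate 1.

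Of 20 macrophage genes 1 rose and 1 fell (median -0.20). Spp1, which encodes the secreted phosphoprotein osteopontin, was among the most abundant transcripts named here, at 4111, 6984 and 8461 CPM in aged and 2336, 3827 and 5033 CPM in young tumours (1.10 ± 0.30, adjusted p = 0.0231). Cd68, a lysosomal macrophage protein, fell (-1.003 ± 0.29, adjusted p = 0.0337). The arginase gene Arg1, at 133 to 703 CPM in aged and 544 to 1676 CPM in young hosts, did not pass (-1.06 ± 0.49, adjusted p = 0.205). The dendritic cell chemokine Ccl17 did not pass either (-1.46 ± 0.59, adjusted p = 0.142). Of 14 complement genes Cfp, properdin, fell (-1.30 ± 0.31, adjusted p = 0.0118). Spp1 lost its call without young anti-CTLA4 replicates 1 or 3, Cfp without replicate 1 (adjusted p = 0.066), and Cd68 without replicates 1, 2, 3, 6, 8 or 9 (adjusted p up to 0.154).

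Feedback inhibitors of cytokine receptors were also examined as a family of 8, chosen after values were seen, in which 3 fell and 0 rose (median -0.17). Cish, induced by STAT5 cytokines, was at 11, 15.3 and 23.7 CPM in aged and at 26.9, 52.2 and 127 CPM in young tumours. The ranges did not overlap (-1.85 ± 0.40, edgeR adjusted p = 0.0072). Socs3 fell by less (-0.68 ± 0.19, adjusted p = 0.0323), and without aged anti-PD-L1 replicate 3 or young anti-CTLA4 replicates 1, 2, 3, 6 or 9 its adjusted p reached 0.146. Socs1 is described above.

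The smallest p among lower genes with an established symbol belonged to Mup10 on chromosome 4 (60578260 to 60582199, minus strand), one of the major urinary proteins that carry pheromones in mice. Its estimated counts were 0 in 5 of 8 aged libraries, at most 11 in the others and 20 in sum, while each young library had 230 to 4080. The fitted log2 difference (-10.56 ± 1.56, edgeR adjusted p = 7.73e-05) depends on how counts near 0 are treated. Mup9 (-5.82 ± 0.98, adjusted p = 0.00079) and Mup16 (-7.08 ± 1.27, adjusted p = 0.0015) fell as well.

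Mup genes are near-identical copies, and the split of reads between them is uncertain, so that their sum was taken over the 21 annotated Mup genes. The sum was 0.5 to 12.3 CPM (median 3.13) in aged and 13.8 to 323 CPM (median 120) in young tumours under anti-PD-L1. In the other arms it was 1.35 to 11.3 CPM (aged) and 11.9 to 192 CPM (young) under isotype, and 1.36 to 20.9 CPM (aged) and 36.3 to 430 CPM (young) under anti-CTLA4. The ages did not overlap under any of the 3 antibodies, of which only anti-CTLA4 had both ages in the same batch.

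**Figure D5:**
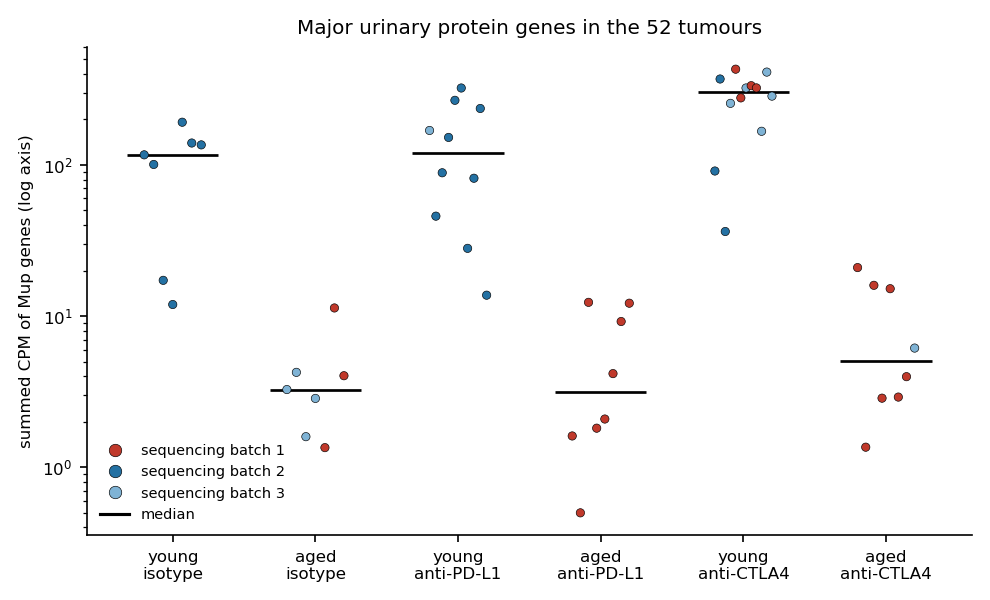
Summed CPM (log axis) of the 21 Mup genes in each of the 52 tumours by age and antibody, 1 point per library coloured by sequencing batch, with the median as a bar. Each aged group lies below the young group of the same antibody, also within batch 1 under anti-CTLA4.

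Cyth1 on chromosome 11 (118132019 to 118248592, minus strand), which encodes cytohesin 1, an exchange factor for ARF GTPases involved in leukocyte adhesion, was another of the leading lower genes. It was at 22.1, 32.6 and 41.7 CPM in aged and at 88.4, 169 and 279 CPM in young tumours. The groups did not overlap, and the means were 30.7 ± 7.3 (SD, n = 8) and 172 ± 60.4 CPM (n = 10). Cyth1 fell (-2.98 ± 0.48, edgeR adjusted p = 0.000388). Under isotype it was at 17.9 to 50.6 CPM in aged and 80.6 to 728 CPM in young hosts, and under anti-CTLA4 at 24.1 to 49.3 and 160 to 854 CPM. Of the other cytohesin genes, looked at after values were seen, Cyth2 (0.26), Cyth3 (0.47) and Cyth4 (-0.11) did not pass.

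Car4, a membrane carbonic anhydrase, was at 1.161, 3.06 and 5.98 CPM in aged and at 11.8, 27.3 and 65.2 CPM in young tumours (-3.45 ± 0.62, edgeR adjusted p = 0.00147). Pla2g5, a secreted phospholipase, was at 0.107 to 1.5 CPM and 2.06 to 7.35 CPM (-3.61 ± 0.61, adjusted p = 0.00079). The phosphodiesterase gene Pde1a fell from a median of 2.49 CPM to 0.368 CPM (-3.06 ± 0.55, adjusted p = 0.00157). None of these 3 genes overlapped between the ages. Ninj1, which encodes a membrane protein that takes part in rupture of dying cells, was at 55.7 to 69 CPM in aged and 80.9 to 208 CPM in young tumours (-1.49 ± 0.30, adjusted p = 0.00406). The prenyltransferase subunit Rabggta (-0.74 ± 0.14, adjusted p = 0.00349) and the channel subunit Cacng7 (-2.71 ± 0.51, adjusted p = 0.00245) completed the leading lower genes with Mid1.

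Mid1, a ubiquitin ligase gene of chromosome X (169685199 to 170005736, plus strand), was at 5, 8.03 and 12.6 CPM in aged and at 14, 19.7 and 43.6 CPM in young tumours (-1.88 ± 0.37, edgeR adjusted p = 0.00406). The noncoding transcript G530011O06Rik lies inside Mid1 on the other strand (169975043 to 169978917). Its p was the smallest of all genes, and it was picked out with that value in view. It was at 0.354, 1.17 and 1.52 CPM in aged and at 3.8, 16.7 and 25.2 CPM in young tumours (-3.91 ± 0.43, adjusted p = 8.84e-08). Neither gene overlapped between the ages. The libraries mark strand, but the labels do not say that the quantification used it, and reads of this pair may be mixed.

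Among higher genes Xiap on chromosome X (42059679 to 42109656, plus strand), an inhibitor of caspases, had the smallest p. It was at 73.5, 83.1 and 106 CPM in aged and at 39.5, 46.8 and 62.9 CPM in young tumours, with no overlap and means of 85.9 ± 10.4 (SD, n = 8) and 48.5 ± 7.7 CPM (n = 10). Xiap rose (0.99 ± 0.17, edgeR adjusted p = 0.00079). Of the 9 inhibitor of apoptosis genes tested, a family chosen after values were seen, it was the only one that passed. The other 8 ran from -1.36 (Naip1, adjusted p = 0.418) to 0.47 (Naip2, adjusted p = 0.174).

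Macc1 on chromosome 12 (119314270 to 119469987, plus strand), a regulator of the MET receptor gene associated with metastasis of carcinomas, was at 31.9, 37.5 and 53.3 CPM in aged and at 2.75, 12.3 and 16 CPM in young tumours. The ages did not overlap (2.19 ± 0.44, edgeR adjusted p = 0.00406), and under isotype they were at 29.8 to 53.6 CPM (aged) and 6.05 to 15.1 CPM (young). Odf2l, a centriole protein gene, was at 23.4 to 40 CPM in aged and 13.8 to 23.3 CPM in young tumours (1.12 ± 0.20, adjusted p = 0.00135). Exoc5, a subunit of the exocyst that tethers secretory vesicles, was at 63.2 to 94.5 CPM and 34.2 to 59.3 CPM (1.07 ± 0.21, adjusted p = 0.00406). Neither gene overlapped between the ages.

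The nuclear receptor gene Nr1d2, a repressor of the circadian clock, rose (1.13 ± 0.21, edgeR adjusted p = 0.00272) and was the only one of 15 clock genes to pass (median 0.05). The mitochondrial genes Tfb2m, a transcription factor of that genome (0.88 ± 0.17, adjusted p = 0.00376), and Slc25a32, a folate carrier (0.78 ± 0.16, adjusted p = 0.00406), rose as well. So did Ubxn7 (0.73 ± 0.14, adjusted p = 0.00397) and Atxn3 (0.98 ± 0.19, adjusted p = 0.00406), which act in ubiquitin-dependent protein turnover. The small GTPase gene Rap2c (0.98 ± 0.19, adjusted p = 0.00406) and Sh3bgrl (1.23 ± 0.25, adjusted p = 0.00508), both on chromosome X, completed the leading higher genes with Idi1.

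Idi1, an isomerase of isoprenoid and cholesterol synthesis, was at 57.5, 72.3 and 105 CPM in aged and at 18.9, 38.6 and 58.9 CPM in young tumours, and young replicate 1, of batch 3, was the one that reached the aged range. Idi1 rose (1.46 ± 0.30, edgeR adjusted p = 0.00508). The synthase Hmgcs1 of the same pathway rose too (0.80 ± 0.24, adjusted p = 0.0365). Its adjusted p was up to 0.0973 without aged anti-PD-L1 replicates 1 or 5 or young anti-CTLA4 replicates 1, 3, 6, 8 or 9, and 0.0753 with no batch term. These were the 2 of 19 cholesterol synthesis genes that passed, in a family chosen after values were seen. With the batch term 19 of 19 were higher by sign (median 0.47), and without it the median was 0.20.

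With the batch term, epithelial and 4T1 tumour cell markers were higher in 16 of 16 members by sign (median 0.63), of which 2 rose and 0 fell. Without it the median was 0.32, with Cdh1 (-0.04), Krt19 (-0.19) and Ehf (-0.015) below 0. Krt7, a keratin of simple epithelia, was at 153, 189 and 253 CPM in aged and at 56.7, 114 and 176 CPM in young tumours (1.41 ± 0.32, edgeR adjusted p = 0.0104). Epcam, an epithelial adhesion protein, was at 136, 198 and 269 CPM and at 87.9, 141 and 181 CPM (0.97 ± 0.27, adjusted p = 0.0255). Its call was lost without young anti-CTLA4 replicates 1 or 3 (adjusted p up to 0.0702). The list's level was 4.56 to 5.65 in aged and 4.29 to 5.19 in young libraries. Its part in the immune gene differences was not tested.

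Proliferation genes changed little. Of 26 cell cycle genes Bub1, a spindle checkpoint kinase, rose (0.83 ± 0.21, edgeR adjusted p = 0.0181), while Mki67, the proliferation antigen, had medians of 88.9 (aged) and 91.2 CPM (young) and did not pass (0.08 ± 0.41, adjusted p = 0.932). Of 14 tested genes of MYC and ribosome production 2 rose, the nucleolar protein Nop58 (0.73 ± 0.17, adjusted p = 0.0118) and Odc1, which makes polyamines (0.78 ± 0.23, adjusted p = 0.0396). Odc1 was at 0.44 without the batch term (adjusted p = 0.0633). Of 19 senescence and p53 target genes 1 fell, the cell cycle inhibitor Cdkn1a (-0.91 ± 0.28, adjusted p = 0.0422). Cdkn2a, which encodes p16 and p19Arf, was at 0.905 to 3.59 CPM in aged and 0.389 to 4.92 CPM in young tumours and did not pass (-1.27 ± 0.79, adjusted p = 0.361).

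The call of Cdkn1a was lost in 15 of the 25 fits without 1 library (adjusted p up to 0.178), namely without aged anti-PD-L1 replicates 1, 3, 4, 6 or 7, young anti-PD-L1 replicates 4, 5, 6 or 9, or young anti-CTLA4 replicates 1, 2, 3, 6, 8 or 9. That of Odc1 was lost in 9 (adjusted p up to 0.149), without aged anti-PD-L1 replicates 3, 4 or 5, young anti-PD-L1 replicates 5 or 6, or young anti-CTLA4 replicates 1, 2, 3 or 9. Bub1 lost its call without young anti-CTLA4 replicates 1 or 3, and Nop58 without replicate 1. Zfp36, which encodes an mRNA decay factor, was the 1 gene of 16 immediate early genes that fell (-1.23 ± 0.31, adjusted p = 0.0164). It was at -0.48 (adjusted p = 0.11) without the batch term, and at an adjusted p of 0.0785 without young anti-CTLA4 replicate 1.

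In the stroma, Pi16, a marker of adventitial fibroblasts, was the 1 of 18 fibroblast genes that fell (-2.26 ± 0.63, edgeR adjusted p = 0.0277). Mmrn2, an endothelial matrix protein gene, was the 1 of 16 endothelial genes that fell (-2.73 ± 0.77, adjusted p = 0.0292), with -0.69 and an adjusted p of 0.502 without the batch term. Their calls were lost without young anti-CTLA4 replicates 1, 2 or 3, and also without replicate 9 (Pi16) or replicates 6 or 8 (Mmrn2). Of 26 TGF-beta and matrix genes 0 passed in edgeR (median -0.19), 3 had an unadjusted p under 0.05 and DESeq2 called 3, with the receptor Tgfbr1 at 0.97 ± 0.31 (adjusted p = 0.0527) and the ligand Tgfb1 at -0.52 ± 0.18 (adjusted p = 0.0761).

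Skeletal muscle genes rose in 1 of 9 tested members, the troponin gene Tnnt3 (2.56 ± 0.70, adjusted p = 0.0255). It was at 5.8 to 32.9 CPM in aged and 0.429 to 15.4 CPM in young tumours, and lost its call without young anti-CTLA4 replicates 1 or 9 (adjusted p up to 0.143). The lipase Lipe, of 16 adipocyte genes, was at -1.03 ± 0.49 (adjusted p = 0.214). The milk fat globule enzyme Xdh, of 14 mammary secretory genes, was at -1.27 ± 0.52 (adjusted p = 0.143). The hypoxia target Vegfa was at -1.38 ± 0.48 (adjusted p = 0.0779). The ribosomal protein gene Rps23 (-0.58 ± 0.42), the mitochondrially encoded mt-Atp8 (1.12 ± 0.50), the cytochrome c gene Cycs (0.57 ± 0.27) and the chaperone Hsp90aa1 (0.62 ± 0.33) had adjusted p of 0.18 to 0.446. In edgeR 0 genes passed in the 7 lists these genes stand for, and each list had 0 to 3 members at an unadjusted p under 0.05. DESeq2 called 2 lower hypoxia genes and 0 in the other 6.

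The age difference was set beside that under anti-CTLA4, the arm with both ages in the same batch. Over all batches 5485 genes (30.6%) differed between ages under anti-CTLA4. Within batch 1 (7 aged and 4 young anti-CTLA4 libraries) 1762 genes were higher (10.8%) and 1834 lower (11.2%) in aged hosts, 22.0% of 16363 tested. These libraries share none with the 18 anti-PD-L1 tumours. Fitted on the latter alone, with age and batch not separated, 1022 genes were higher (6.46%) and 1072 lower (6.77%), 13.2% of 15823. Of 15657 genes tested in both, 2012 passed under anti-PD-L1 and 3502 under anti-CTLA4. In the same direction 1280 passed in both, 716 higher and 564 lower, which is 63.6% of the anti-PD-L1 and 36.6% of the anti-CTLA4 genes.

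The 4 young libraries of batch 1 under anti-CTLA4 also helped to set the batch term of the fit over all 52 libraries. Values from that fit and from batch 1 alone are therefore not independent. Genes named above had these values in batch 1 under anti-CTLA4. Cyth1 was at -3.59 (edgeR adjusted p = 0.00108), Macc1 at 2.34 (adjusted p = 0.00483) and Xiap at 1.05 (adjusted p = 0.00164). Cd274 was at -1.58 (adjusted p = 0.0034), with 15 to 36 CPM in aged and 41.6 to 108 CPM in young libraries, and Pdcd1lg2 at -3.04 (adjusted p = 0.00317). Of the interferon-gamma response genes 17 of 23 fell, and of MHC class I 13 of 17, against 11.2% of all genes tested there. In the same comparison 8 of 13 class II presentation genes and 7 of 24 type I interferon response genes fell. Pi16 (-0.30, adjusted p = 0.582) and Ccr2 (0.62, adjusted p = 0.0879) did not pass there, and Pdcd1, which did not pass under anti-PD-L1, was at -2.03 (adjusted p = 0.00529).

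The difference between the age effects was tested in the fit over all libraries. In edgeR 0 genes passed for anti-PD-L1 against anti-CTLA4, with 332 at an unadjusted p under 0.05, while DESeq2 called 20. For anti-PD-L1 against isotype the count in edgeR was 0 too, 655 genes had an unadjusted p under 0.05, and DESeq2 called 63. In that fit Cd274 was at -1.47 under anti-PD-L1 and at -1.66 under anti-CTLA4, a fall with age that was smaller under anti-PD-L1 by 0.19 ± 0.42 (SE). Pdcd1 was at -0.36 and -1.74, smaller in size under anti-PD-L1 by 1.39 ± 0.57. Both differences had an adjusted p of 0.986.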

How the data were processed

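Tumour RNA was sequenced as strand-marked, poly(A)-selected libraries with paired reads of 75 bases, per the labels. Salmon, DESeq2 1.16.1 and mm10 are named in the submitters' processing notes. The authors deposited estimated counts per gene (expected counts, whole numbers) and TPM, which was used for effective gene lengths and tumour markers. The step from transcripts to genes and its use of strand are not given in the sources used here. Symbols and positions came from GENCODE vM21 (GRCm38), and 47224 of 47729 identifiers matched.

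Counts were fitted with edgeR 4.0.16 in R 4.3.3 (filterByExpr, TMM, group and batch terms, all 52 libraries, quasi-likelihood F test). Passing means an adjusted p (Benjamini-Hochberg) under 0.05. CPM values are TMM-normalized, and levels are log2 CPM with a prior count of 2. Values are log2 fold changes, aged minus young. Their SE was derived from the fold change and the F statistic of its test. Within the aged and the young anti-PD-L1 group no libraries were copies of one another (73 pairs, chi-square per degree of freedom at least 29.8). The script was tested on counts simulated without batch effects. It called 45 of 100 genes changed 2-fold, 81 of 100 changed 4-fold and 8 of 17511 unchanged genes. That test does not cover the separation of age from batch.

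Alternatives were DESeq2 1.42.0, relative log expression, no filter (36654 genes), no batch term, the 2 groups alone, no isotype libraries, no libraries of TMM factor under 0.8, B cell level or length trend as a covariate, a replicate block, and leaving out 1 of 25 libraries. Named genes were ranked by p among passing genes averaging 1 CPM or more whose symbol is not a prediction, 12 in each direction, drawn again from those also passing with no batch term. A set of 31 genes and up to 4 passing genes per list (2 where none passed) were added. The members, the 39 lists and the rule were chosen with earlier results of these data known, and 7 families after values were seen. The result for 1 of the 31 genes is not reported here.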

Additional observations from a re-analysis of the deposited data

Results flagged for a closer look

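Among the named genes, 224 groups of 8 aged or 10 young anti-PD-L1 libraries were examined for a library far from the others on log2 CPM, and 13 (5.8%) held one. Chance gives about 1 in 20. Aged replicate 4 was low for Ifng (-2.37), the class II transactivator Ciita (2.20), H2-DMa (5.58), Tnf (0.897) and Il4 (-1.72). The same library had the lowest interferon-gamma response level. Aged replicate 2 was high for Nos2 (4.37), and aged replicate 6 was high for Ccl17 (3.95). Young replicate 2 was low for Irf1 (7.42) and Tap1 (6.69), and it was also the lowest young library for Cd274. Young replicate 6 was low for Idi1 (4.24), young replicate 10 was high for Ccr2 (7.14), young replicate 1, the library of batch 3, was high for Cycs (5.83), and young replicate 4 was low for G530011O06Rik (1.96).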

How the results depend on the processing

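The count of genes differing under anti-PD-L1 was 903. It was 1558 in DESeq2, 2953 with the length trend as a covariate, 2192 without the batch term, 426 without a filter, 2094 and 2559 with the 2 anti-PD-L1 groups alone (all libraries, or batch 1 against batch 2), and 35 with the replicate number as a block. It was 555 to 1701 without 1 anti-PD-L1 library and 224 to 1582 without 1 young anti-CTLA4 library of batch 1 or 2. Within batch 1 the anti-CTLA4 count was 3596 against 5485. The interaction with anti-CTLA4 gave 20 genes in DESeq2, and that with isotype gave 63 in DESeq2, 18 without the batch term and 2 with the replicate block. Replicate numbers do not pair these libraries: over 8 pairs, correlations of deviations ran from -0.469 to 0.296 with 2 above 0.1, and 1 aged library correlated best with its own number. The block left 21 of 74 named calls. The cause of these changes was not tested.

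Of the 903 genes, 1 changed sign without the batch term, and 1 and 2 with the 2 groups alone (all libraries, or batch 1 against batch 2). Among the named genes, those that changed sign did not pass. Pdcd1 was at 0.40 without the batch term, 0.40 with the 2 groups alone in both forms, 0.0357 with the length trend and 0.033 without libraries of low TMM factor. Cd8a was at 0.41 without the batch term, and at 0.40 and 0.54 with the 2 groups alone. Cdkn2a was at 0.65, 0.64 and 0.87 in the same 3 fits. Ctla4 (0.0041) and Rps23 (0.0736) changed sign with batch 1 against batch 2. Cxcl9 (0.0547), Isg15 (0.16) and Mki67 (-0.14) did so with the length trend, Mki67 (-0.0731) without libraries of low TMM factor, and Mx1 (-0.0174) with the replicate block. Leaving out 1 library took Pdcd1 from -0.67 to 0.0945, Cxcl9 from -0.41 to 0.0405, Mx1 from -0.36 to 0.30 and Mki67 from -0.0533 to 0.22.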

Other observations

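Other immune lists held 0 genes that passed in edgeR. Of 16 dendritic cell genes (median -0.57) 3 had an unadjusted p under 0.05, of 12 plasma cell genes (median -1.55) 2 did, and DESeq2 called 0 in both. Of 12 genes of lymph node stroma and homing, whose median was -1.88, 0 had an unadjusted p under 0.05 and DESeq2 called 1 as lower. Without the batch term the medians of the dendritic and lymph node lists were 0.06 and 0.08. Of 12 regulators of the epithelial-mesenchymal transition, with a median of -0.05, 2 had an unadjusted p under 0.05 and DESeq2 called 0.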
